A study of Homo sapiens with 18 samples.

Results

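The respiratory chain subunits were taken from the deposited expression table by gene symbol. The 7 symbol patterns cover the NDUF, SDH, UQCR, COX and ATP5 subunit families and the protein-coding genes of the mitochondrial genome. They matched 159 of 59385 rows, of which 96 were protein-coding genes (83 in the nucleus and 13 on mitochondrial DNA) and 63 were processed pseudogenes of subunit genes. The patterns use symbols alone, although the set was picked with earlier results of these data known. Subunits whose symbols lie outside the patterns, such as CYC1, CYCS and NDUFAB1, were followed as a separate list.

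Oxidative phosphorylation is carried out by 5 complexes in the inner mitochondrial membrane. Complexes I and II pass electrons from NADH and succinate to ubiquinone, complex III passes them on to cytochrome c, complex IV reduces oxygen, and complex V, the ATP synthase, uses the resulting proton gradient to make ATP. All complexes but complex II are built from subunits of both genomes. The mitochondrial subunits are read from polycistronic transcripts and sit in the proton-pumping or catalytic membrane core, whereas the nuclear subunits are translated in the cytosol and imported. In prostate epithelium this pathway is known for its link to citrate, which normal luminal cells secrete and prostate cancer cells oxidise.

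LNCaP cells, an established human prostate cancer line with luminal features, were grown in medium with 10% fetal bovine serum and transfected by RNAiMAX with a control siRNA (siNC), with siPDIA1 or with siPDIA5. PDIA1, encoded by P4HB, and PDIA5 are protein disulfide isomerases, enzymes that form and rearrange disulfide bonds in the endoplasmic reticulum. RNA was collected after 48 h or 96 h, which gave 6 groups of 3 libraries and 18 libraries in all; the groups differed by siRNA and time only, and no untransfected cells were included. All cells were of 1 line, nothing in the labels states that replicate libraries came from separate cultures, so p-values measure the spread between these libraries, which may be technical. At each time both siRNAs were compared with the same 3 siNC libraries.

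Levels are in RPKM, read counts divided by the length of the gene and by the size of the library. Steps in the low values gave an estimated depth of 29.2 to 43.9 M reads on genes per library. Mean RPKM of P4HB was 66.9 with siNC and 5.73 with siPDIA1 at 48 h, and 68.9 and 9.16 at 96 h; mean PDIA5 was 13.98 with siNC and 1.55 with siPDIA5 at 48 h, and 14.9 and 1.40 at 96 h. All 8 luminal markers were expressed (28.6 to 609 RPKM over libraries), and 12 of the 14 markers of other cell types stayed at or below 0.679 RPKM, the exceptions being COL1A1 (1.69 to 3.59) and VWF (0.901 to 3.24). The summed level of these 14 markers ran from 3.25 to 3.58 RPKM in siNC at 48 h up to 6.24 to 6.59 in siPDIA1 at 96 h, and its part in the results below was not tested.

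A pair of libraries stood apart in these genes. In replicate 1 of siPDIA1 at 96 h, 9 protein-coding subunits differed by more than 1 on the log2 scale from the mean of the other 2 libraries, 7 lower and 2 higher. No library of another group had any. ATP5ME, a membrane subunit of the ATP synthase, was 8.77 RPKM there and 66.5 and 61.4 in replicates 2 and 3. COX6A1 was 12.2 against 65.1 and 58.7, and COX8A was 75.0 against 261 and 249, both being nuclear subunits of complex IV. On the mitochondrial side MT-ATP8 was 3323 against 1052 and 820, and MT-ND4L was 4972 against 2496 and 2066. These are values of 1 library, not of the siPDIA1 group. The count of nuclear subunits with siPDIA1 at 96 h is given with and without it. Of the siPDIA1 calls against siNC at 96 h described below, those lost without this library are marked. The siPDIA1 counts by complex at 96 h are given with all libraries only.

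**Figure D1:**
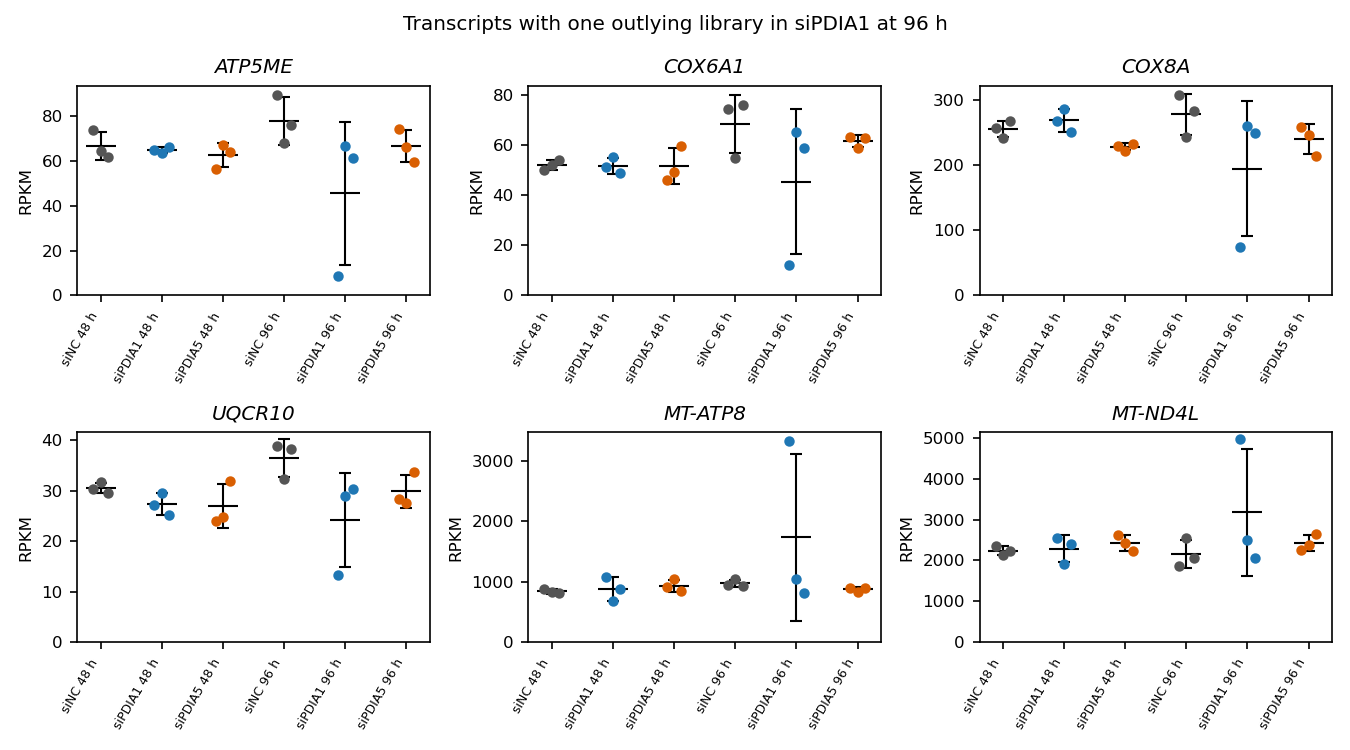
RPKM (y axis, from 0) of 6 subunit transcripts in each of the 18 libraries, by group (x axis; points, libraries; horizontal bar and whiskers, mean and SD, n = 3). In siPDIA1 at 96 h, replicate 1 lies far below the other 2 libraries for ATP5ME (8.77 against 66.5 and 61.4), COX6A1, COX8A and UQCR10 and far above them for MT-ATP8 and MT-ND4L.

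Replicate 2 of siNC at 96 h was the other. It was below the mean of its 2 companion libraries for 73 of the 74 nuclear subunits tested, with a median difference of -0.28 on the log2 scale, while its 13 mitochondrial transcripts had a median of 0.15 above them. The summed RPKM of all nuclear subunits was 5537 in that library and 7037 and 6477 in replicates 1 and 3. Replicate 1 of siNC at 96 h lay the other way, with 5 of the 74 below the mean of its companions and a median difference of 0.21. With 3 libraries, which of them is the odd one cannot be told. Since replicate 2 is a control of every 96 h comparison, the counts at 96 h are also given without it.

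The subunit transcripts spanned more than 4 orders of magnitude. The 13 mitochondrial transcripts, which encode the core of complexes I, III, IV and V, ranged in mean RPKM from 1038 for MT-ATP8 to 14072 for MT-CO3. The nuclear gene with the highest level per length was ATP5F1B, the catalytic beta subunit of the ATP synthase, at 682 RPKM. Next came the complex I accessory subunits NDUFS5 (488) and NDUFB10 (278) and the complex IV subunit COX8A (244). Every mitochondrial transcript was thus above every nuclear one on the RPKM scale.

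**Figure D2:**
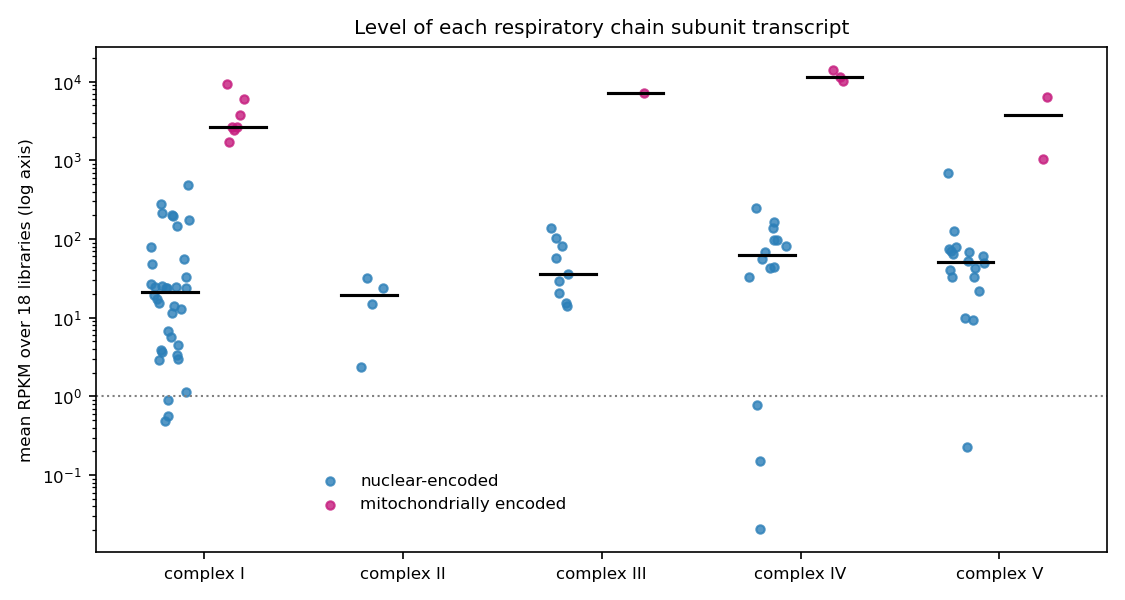
Mean RPKM over 18 libraries (y axis, log scale) of each protein-coding subunit gene, by complex (x axis; points, genes; black bars, medians; dotted line, the filter at 1 RPKM). Mitochondrially encoded genes lie between 1038 and 14072 RPKM and nuclear genes at or below 682; COX6A2 and COX8C, listed at 0, cannot be drawn on this axis.

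Of the 159 rows, 93 had a mean of at least 1 RPKM and were tested, namely 74 nuclear genes, 13 mitochondrial genes and 6 pseudogene rows. The 9 protein-coding genes under the filter were of 2 kinds. COX6A2, COX6B2, COX7A1, COX7B2 and COX8C are paralogs of complex IV subunits known from muscle or testis; COX6A2 and COX8C were listed at 0 in all libraries and COX7B2 was the highest of the 5 at a mean of 0.772. ATP5MGL, a paralog of a membrane subunit, had a mean of 0.225. NDUFA7 (0.561), NDUFA9 (0.912) and NDUFV2 (0.481) are ubiquitous complex I subunits, and each overlaps another annotated gene of the same strand over 32.3%, 10.6% and 28.4% of its exon bases. How the authors' counting treated reads shared by overlapping genes is not given in the sources used here, so these 3 low values are uncertain. Just above the filter lay NDUFA13, with a mean of 1.13, which was under 1 in 2 of the 6 groups.

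The same limit touches 11 of the 74 nuclear genes tested, which share more than 10% of their exon bases with a neighbour on the same strand, among them NDUFC1 (18.5%, with MGARP), UQCR11 (10.9%) and COX8A (34.5%). SDHA, the flavoprotein subunit of complex II, was 2.34 RPKM although its complex partners were between 15.0 and 32.3. Its exons add up to 8383 bases in the annotation, against 2390 in the principal transcript. Those of its partner SDHC add up to 14160 bases, and the cause of the low SDHA value was not tested. RPKM divides by such a length, and levels of different genes are not compared further. Changes are therefore compared within a gene across groups. For pseudogenes and near-identical copies reads can be split or shared: of 63 pseudogene rows 11 were listed at 0 throughout and 6 were tested, with means between 1.67 and 4.18 RPKM. UQCRHL, an intronless protein-coding copy of UQCRH, had a mean of 14.2 against 139 for UQCRH, and both are uncertain.

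Mitochondrial rows have copies in the nuclear genome as well. The table lists 402 such rows, 9 with a mean of at least 1 RPKM. On chromosome 1, MTATP6P1 had a mean of 1524 RPKM, MTND2P28 of 269 and MTCO3P12 of 77.6, so MT-ATP6, MT-ND2 and MT-CO3 are reported as uncertain. Genes on the mitochondrial heavy-strand transcript also overlap each other. The end of MT-ATP8 and the start of MT-ATP6 share 46 bases (chrM:8527-8572, plus strand), and the end of MT-ND4L and the start of MT-ND4 share 7 (chrM:10760-10766); the sequences are shown because reads from these bases belong to 2 subunits at once, with the shared bases in capitals.
MT-ATP8 and MT-ATP6, chrM:8507-8592: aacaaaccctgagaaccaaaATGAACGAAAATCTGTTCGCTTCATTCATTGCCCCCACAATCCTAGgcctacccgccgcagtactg
MT-ND4L and MT-ND4, chrM:10740-10786: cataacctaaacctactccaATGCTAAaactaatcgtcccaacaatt

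The protein-coding transcripts of the mitochondrial genome took 6.99% to 7.47% of reads in siNC at 48 h, 7.21% to 7.68% in siPDIA1 and 7.71% to 7.89% in siPDIA5. At 96 h the ranges were 7.65% to 8.40%, 7.49% to 8.24% and 8.44% to 9.41%. The siPDIA5 libraries lay above all siNC libraries at both times, and the siPDIA1 libraries overlapped them at both. The ratio of the summed mitochondrial to the summed nuclear RPKM was 12.8 to 13.4 in siNC, 14.4 to 15.5 in siPDIA1 and 14.9 to 16.6 in siPDIA5 at 48 h. It was 11.1 to 15.2, 13.5 to 15.5 and 16.7 to 19.6 at 96 h, where the upper end of siNC was its replicate 2. In bulk RNA, fewer cells of a type and less RNA per cell cannot be told apart.

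Across the 4 comparisons with siNC, more nuclear subunits fell than rose, with the largest count with siPDIA5 at 96 h. With siPDIA5 at 48 h that margin narrowed to 10 falls and 5 rises when libraries were centred on their medians. A gene was called when its adjusted p in limma, over all 11685 genes tested, was under 0.05. With siPDIA5 at 96 h, 37 of 74 nuclear subunits fell and 0 rose, with a median log2 fold change of -0.24 against -0.06 over all genes tested. Over all genes, 30.3% fell and 20.8% rose in this comparison. Without replicate 2 of siNC at 96 h, 41 nuclear subunits fell and 0 rose (median -0.31), and without replicate 1 of siPDIA1 at 96 h, which only enters the shared spread, 41 fell and 0 rose as well. Leaving out each of the 18 libraries in turn gave nuclear medians from -0.31 to -0.15 and from 26 to 47 members called. The 13 mitochondrial subunits had a median of 0.16, with 2 rises and 0 falls. At an unadjusted p under 0.05, 0 nuclear subunits were higher and 38 lower, and 6 mitochondrial ones were higher and 0 lower.

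With siPDIA5 at 48 h, 18 of 74 nuclear subunits fell and 1 rose, with a median of -0.11, and 6 of 13 mitochondrial subunits rose and 0 fell, with a median of 0.17. Over all genes 29.2% fell and 16.6% rose, so the share of nuclear falls was below the background. The median over all genes was -0.09 here, and centring every library on its median moved it to 0.01 and the split of all calls from 1944 higher and 3408 lower to 2730 and 2236. On that centred scale 5 nuclear subunits rose and 10 fell (median 0.00) and 9 mitochondrial ones rose (median 0.27), and all members called, pseudogene rows included, went from 7 higher and 18 lower to 14 and 10. The total of 25 members called, pseudogene rows included, dropped to 13 without siPDIA5 replicate 1, to 15 without siPDIA5 replicate 2 and to 15 without siNC replicate 3 at 48 h.

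With siPDIA1 at 48 h, 3 nuclear subunits rose and 8 fell (median -0.08 against -0.01 over all genes), and 1 mitochondrial subunit rose. Over all genes 16% rose and 17.4% fell. At 96 h, 6 nuclear subunits rose and 18 fell (median -0.13 against -0.03), against 20.1% higher and 25.2% lower over all genes; 1 mitochondrial subunit rose and 1 fell. Without replicate 1 of siPDIA1 at 96 h the nuclear counts were 7 and 12 (median -0.07), and without replicate 2 of siNC they were 3 and 27 (median -0.20), against 20.1% of all genes higher and 24.3% lower in that fit. The 28 members called at 96 h dropped to 17 without replicate 3 of siNC at 96 h, and the 12 called at 48 h rose to 19 without replicate 2 of siNC at 96 h, which there only enters the shared spread. With all libraries the share of nuclear falls was below the background at both times, and without replicate 2 of siNC at 96 h it was above it at 96 h.

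**Figure D3:**
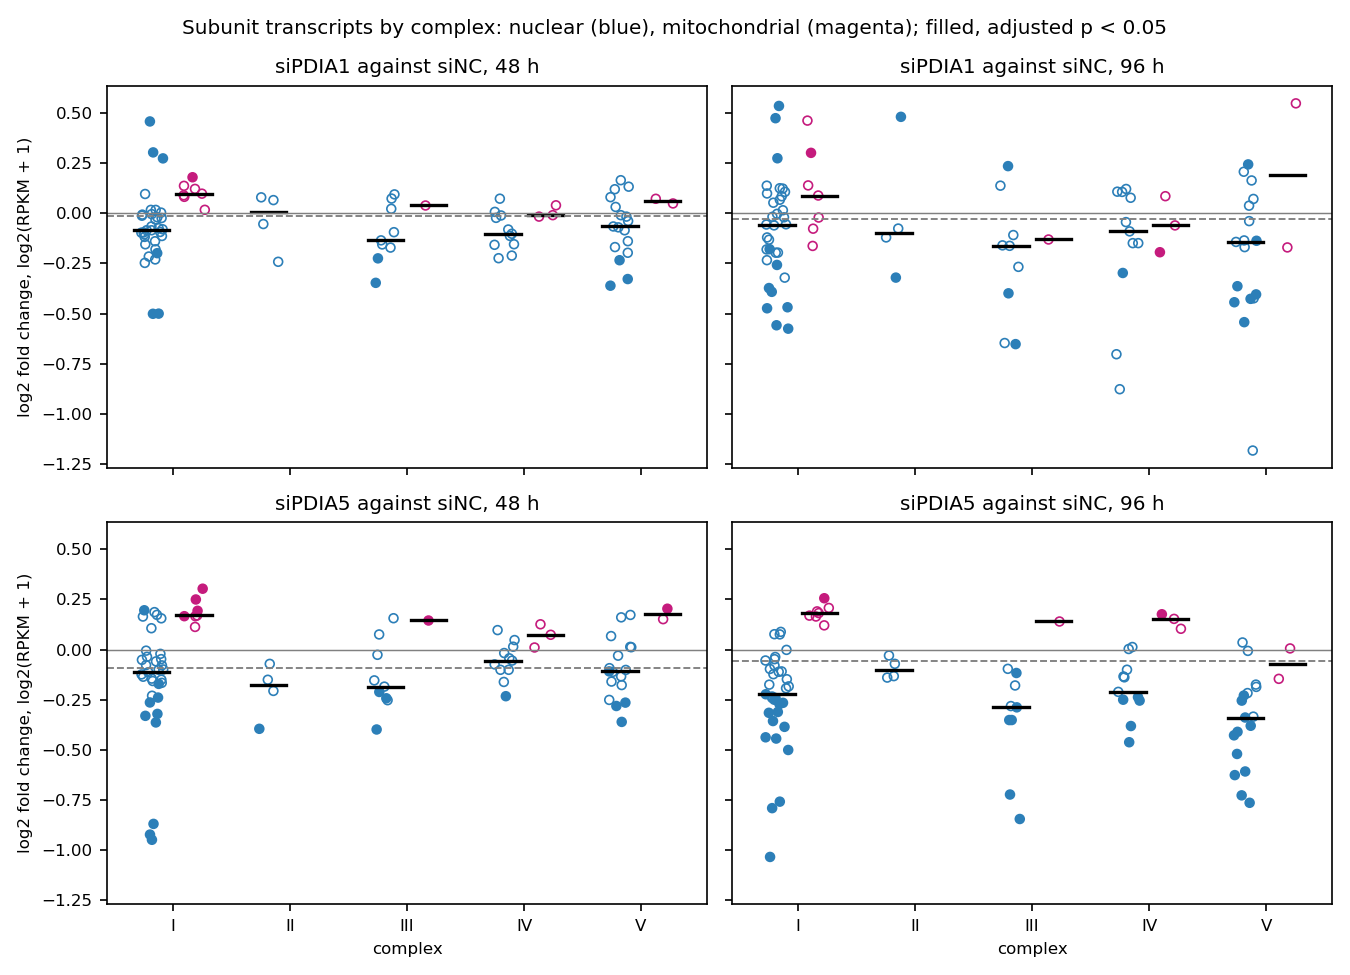
Log2 fold change on the log2(RPKM + 1) scale (y axis) of each tested subunit by complex (x axis) in the 4 comparisons with siNC (blue, nuclear; magenta, mitochondrial; filled points, adjusted p under 0.05; black bars, medians; dashed line, median over all genes tested). With siPDIA5 at 96 h the nuclear medians lie below 0 in each complex, at -0.34 in complex V, while the mitochondrial medians lie above 0 in complexes I, III and IV.

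Within siPDIA5, 14 nuclear genes fell at both times, 77.8% of the 18 at 48 h and 37.8% of the 37 at 96 h, and the lists come from separate libraries. Over all genes tested, the falls shared by both times were 67.3% of those at 48 h and 64.8% of those at 96 h. Within siPDIA1, 6 genes fell at both times, 75.0% of the 8 at 48 h and 31.6% of the 19 falls among protein-coding members at 96 h, beside 81.4% and 56.0% over all genes tested. Of 80 named calls in all 9 comparisons, 50 were also made when each of the 18 libraries was left out in turn; the others are given below or with the time differences.

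Complex I holds 43 of the protein-coding members, with 7 mitochondrial core subunits and 33 nuclear ones that were tested. NDUFA4 was counted in complex IV despite its symbol. With siPDIA5 at 96 h, 15 of these 33 fell and 0 rose (median -0.22), and at 48 h 9 fell and 1 rose (median -0.11). The largest falls were in NDUFB10, NDUFB1 and NDUFC1, accessory subunits of the membrane arm. With siPDIA1, 3 rose and 3 fell at 48 h, and 3 rose and 8 fell at 96 h. Counts by complex, here and below, stand beside the shares over all genes tested. With siPDIA5 29.2% were lower and 16.6% higher at 48 h, and 30.3% and 20.8% at 96 h. With siPDIA1 17.4% were lower and 16% higher at 48 h, and 25.2% and 20.1% at 96 h. For complex I the share of falls was below these with siPDIA1 at both times and with siPDIA5 at 48 h.

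NDUFB10 lies at chr16:1959508-1961975 on the plus strand of GRCh38. Its RPKM was 391, 350 and 374 in siNC, 260, 267 and 260 in siPDIA1 and 175, 201 and 212 in siPDIA5 at 48 h. At 96 h it was 431, 344 and 394 in siNC, 262, 266 and 251 in siPDIA1 and 203, 179 and 185 in siPDIA5. The 3 siRNA groups did not overlap at either time, and siPDIA5 was the lowest at both. The log2 fold change against siNC was -0.92 ± 0.08 (SE) with siPDIA5 at 48 h (adjusted p = 1.75e-07) and -1.04 ± 0.08 at 96 h (adjusted p = 2.67e-08), which left 48.5% of the siNC level. With siPDIA1 it was -0.50 ± 0.08 at 48 h (adjusted p = 0.000145) and -0.58 ± 0.08 at 96 h (adjusted p = 2.38e-05). The direct comparison of siPDIA1 with siPDIA5 gave 0.42 ± 0.08 at 48 h (adjusted p = 0.000526) and 0.46 ± 0.08 at 96 h (adjusted p = 0.000181).

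NDUFB1 and NDUFC1, small single-span subunits of the membrane arm, fell with siPDIA5. NDUFB1 (chr14:92116122-92121917, minus strand) was 28.8, 24.7 and 28.2 RPKM in siNC and 12.9, 13.4 and 14.6 in siPDIA5 at 48 h, and 36.6, 27.0 and 33.6 against 19.3, 18.4 and 17.99 at 96 h. In siPDIA1 it was 24.8, 25.5 and 25.9 at 48 h and 29.8, 29.99 and 28.0 at 96 h, which overlapped siNC at both times. The log2 fold change of NDUFB1 with siPDIA5 was -0.95 ± 0.09 (adjusted p = 3.03e-07) and -0.76 ± 0.09 (adjusted p = 2.06e-06), and siPDIA1 was 0.86 ± 0.09 above siPDIA5 at 48 h (adjusted p = 1.15e-06) and 0.63 ± 0.09 at 96 h (adjusted p = 1.94e-05). NDUFC1 (chr4:139266880-139302551, minus strand) was 22.2, 20.9 and 19.8 RPKM in siNC and 11.4, 10.97 and 10.6 in siPDIA5 at 48 h, and 26.3, 17.3 and 21.6 against 12.1, 11.6 and 12.2 at 96 h. Its log2 fold change was -0.87 ± 0.10 (adjusted p = 2.73e-06) and -0.79 ± 0.10 (adjusted p = 4.82e-06). The siPDIA1 level of NDUFC1 exceeded that of siPDIA5 by 0.87 ± 0.10 at 48 h and 0.60 ± 0.10 at 96 h (adjusted p = 3.31e-06 and 0.000105).

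Against siNC, siPDIA1 changed neither NDUFB1 nor NDUFC1 past the threshold at either time (adjusted p between 0.114 and 0.985). Without replicate 2 of siNC at 96 h both passed it at 96 h, at -0.25 (adjusted p = 0.00670) and -0.34 (adjusted p = 0.00134). NDUFA10, an accessory subunit of the membrane arm, showed smaller falls with siPDIA5, by 0.33 ± 0.05 at 48 h and by 0.44 ± 0.05 at 96 h on the log2 scale (adjusted p = 0.000138 and 4.96e-06).

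**Figure D4:**
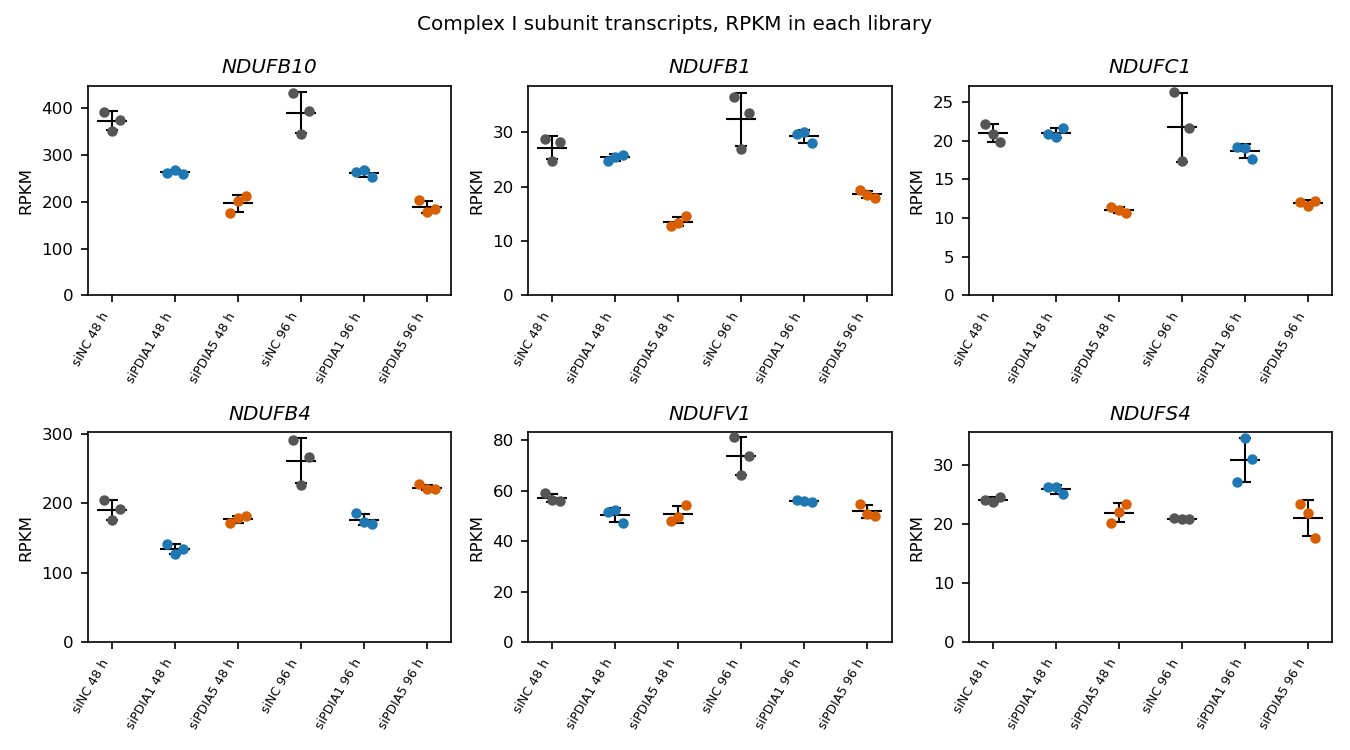
RPKM (y axis, from 0) of 6 complex I transcripts in each of the 18 libraries, by group (x axis; points, libraries; horizontal bar and whiskers, mean and SD, n = 3). NDUFB10, NDUFB1 and NDUFC1 are lowest in siPDIA5 at both times, NDUFB4 is lowest in siPDIA1, NDUFS4 is highest in siPDIA1 at 96 h, and NDUFV1 at 96 h is 49.8 to 56.1 in the siRNA libraries and 66.4 to 81.3 in siNC.

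The promoters of NDUFB10, NDUFB1, NDUFC1 and UQCRH, a complex III gene described below, are shown as examples. They are among the 14 genes that fell with siPDIA5 at both times. Nuclear respiratory genes are known to carry sites for NRF1, the ETS factor GABP and YY1, and windows of 300 bases (250 before to 50 after the start, RefSeq, GRCh38.p14) were searched on both strands for an NRF1 core (GCGCA and GCGC with 1 base of any kind between them) and an ETS core (CCGGAAG), and for a YY1 motif whose letters are not printed. A window was found for 67 of 83 nuclear members. Of the 14 genes, UQCR11, UQCRFS1, NDUFS1 and COX6B1, not shown, held a match. ATP5F1A, ATP5MC2, NDUFA10 and NDUFV1, not shown either, held none. The sequences are given in the direction of transcription, and the capitals mark the only match in these 4 windows, the reverse complement of CCGGAAG in UQCRH.
NDUFB10, chr16:1959288-1959587, plus strand: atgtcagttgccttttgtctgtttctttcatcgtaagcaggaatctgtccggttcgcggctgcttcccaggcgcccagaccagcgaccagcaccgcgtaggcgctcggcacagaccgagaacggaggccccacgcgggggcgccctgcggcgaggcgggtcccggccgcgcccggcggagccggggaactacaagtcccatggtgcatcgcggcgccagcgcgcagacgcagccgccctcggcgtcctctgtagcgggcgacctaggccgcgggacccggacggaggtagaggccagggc
NDUFB1, chr14:92121657-92121956, minus strand: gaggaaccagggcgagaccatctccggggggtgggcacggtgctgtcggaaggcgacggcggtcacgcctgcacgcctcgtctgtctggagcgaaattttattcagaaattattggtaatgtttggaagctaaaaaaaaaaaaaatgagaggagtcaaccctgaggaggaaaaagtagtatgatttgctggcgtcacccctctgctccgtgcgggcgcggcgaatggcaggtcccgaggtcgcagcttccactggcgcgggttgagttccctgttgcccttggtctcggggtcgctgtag
NDUFC1, chr4:139302502-139302801, minus strand: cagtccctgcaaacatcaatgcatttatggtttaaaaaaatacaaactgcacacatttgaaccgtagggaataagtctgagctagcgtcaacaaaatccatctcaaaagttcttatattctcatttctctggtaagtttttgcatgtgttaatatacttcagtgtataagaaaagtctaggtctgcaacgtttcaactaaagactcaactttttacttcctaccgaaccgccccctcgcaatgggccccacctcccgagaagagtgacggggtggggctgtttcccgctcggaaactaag
UQCRH, chr1:46303448-46303747, plus strand: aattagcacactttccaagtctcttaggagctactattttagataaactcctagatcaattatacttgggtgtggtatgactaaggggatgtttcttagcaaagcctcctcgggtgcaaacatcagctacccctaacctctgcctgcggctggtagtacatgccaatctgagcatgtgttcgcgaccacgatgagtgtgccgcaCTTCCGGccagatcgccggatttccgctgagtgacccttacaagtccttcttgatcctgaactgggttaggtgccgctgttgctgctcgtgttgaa

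Over the 67 members, 25.4% of windows held the NRF1 letters, 29.9% the ETS letters and 13.4% the YY1 motif, beside 5.74%, 10.2% and 1.44% of all 34943 promoter windows in the table. Among the 31 members with a window that fell with siPDIA5 at 96 h the shares were 19.4%, 32.3% and 12.9%. Among the other 29 tested members with a window they were 31.0%, 34.5% and 13.8%. A match is a description and not a measured binding site.

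With siPDIA1 the members of complex I moved in both directions. NDUFB4, a membrane-arm subunit, was 204, 175 and 191 RPKM in siNC and 141, 127 and 135 in siPDIA1 at 48 h, and 291, 227 and 266 against 185, 174 and 171 at 96 h. The groups did not overlap, and the log2 fold change was -0.50 ± 0.08 (adjusted p = 9.13e-05) and -0.56 ± 0.08 (adjusted p = 1.91e-05). With siPDIA5 NDUFB4 was at -0.10 ± 0.08 at 48 h (adjusted p = 0.297) and fell by 0.22 ± 0.08 at 96 h (adjusted p = 0.0212). The direct difference, siPDIA1 minus siPDIA5, was -0.40 ± 0.08 at 48 h and -0.34 ± 0.08 at 96 h (adjusted p = 0.000538 and 0.00165).

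NDUFS4, an accessory subunit next to the NADH-oxidising module, rose at 96 h. It was 21.02, 20.7 and 20.8 RPKM in siNC and 27.0, 34.5 and 30.9 in siPDIA1 at 96 h (log2 fold change 0.54 ± 0.09, adjusted p = 0.000156). At 48 h NDUFS4 was 0.10 ± 0.09 (adjusted p = 0.452). NDUFA8 rose by 0.27 ± 0.09 at both times, from 68.0, 70.7 and 67.5 to 79.5, 90.9 and 79.9 at 48 h, but its call was lost without 4 of 18 libraries at 48 h and 3 at 96 h, among them replicate 1 of siPDIA1 (adjusted p = 0.104).

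The low gene NDUFA13, at 0.856, 0.836 and 0.563 RPKM in siNC and 1.03, 1.21 and 1.23 in siPDIA1 at 48 h, passed the threshold narrowly (0.30 ± 0.11, adjusted p = 0.0482) and lost it without 13 of 18 libraries. NDUFB8, often used as a protein marker of complex I, was between 2.29 and 4.76 RPKM in all libraries but 1. The exception was 0.631 in replicate 1 of siPDIA1 at 96 h, and no comparison of NDUFB8 with siNC passed (adjusted p between 0.562 and 0.964).

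The nuclear core subunits of complex I carry the flavin and iron-sulfur clusters. Of 6 tested, 4 fell with each siRNA at 96 h. NDUFV1, which binds the flavin, was 81.3, 66.4 and 73.8 RPKM in siNC, 56.1, 55.8 and 55.6 in siPDIA1 and 54.6, 50.8 and 49.8 in siPDIA5 at 96 h. All siRNA libraries lay below all siNC libraries, with log2 fold changes of -0.39 ± 0.07 (adjusted p = 0.000182) and -0.50 ± 0.07 (adjusted p = 1.18e-05). At 48 h NDUFV1 was -0.18 ± 0.07 with siPDIA1 (adjusted p = 0.0502) and -0.17 ± 0.07 with siPDIA5 (adjusted p = 0.0473), and the latter call was lost without 13 of 18 libraries. NDUFS1 fell by 0.27 ± 0.06 with siPDIA5 at 96 h, from 12.9, 15.0 and 14.2 to 11.5, 11.9 and 11.1 (adjusted p = 0.00106), and by 0.18 ± 0.06 with siPDIA1 (adjusted p = 0.0185), a call lost without 3 libraries, among them replicate 2 of siNC (adjusted p = 0.0811).

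Complex II is the one complex with no mitochondrial subunit. With siPDIA5 at 96 h, 0 of its 4 genes passed the threshold in limma, and 0 had an unadjusted p under 0.05. Over all genes 30.3% were lower and 20.8% higher in this comparison, and 4 genes are too few to set complex II apart from that. SDHA lay between 1.86 and 2.93 RPKM in all 18 libraries, and SDHB, the iron-sulfur subunit, between 28.0 and 39.5. No comparison of either with siNC passed (adjusted p between 0.210 and 0.833). SDHD, a membrane anchor, fell with siPDIA5 at 48 h, from 18.9, 15.96 and 17.8 to 14.3, 12.7 and 12.3 RPKM (log2 fold change -0.40 ± 0.10, adjusted p = 0.00418), and was -0.14 ± 0.10 at 96 h (adjusted p = 0.265).

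With siPDIA1 at 96 h SDHD was 10.3, 14.6 and 14.5 against 16.9, 15.5 and 17.1 in siNC, a fall of 0.32 ± 0.10 (adjusted p = 0.0157) that missed the threshold without replicate 1 (adjusted p = 0.0789). SDHC, the other anchor, was 44.6, 26.4 and 25.5 in siPDIA1 against 19.7, 21.2 and 25.4 in siNC. Its log2 fold change of 0.48 ± 0.16 (adjusted p = 0.0206) became 0.23 (adjusted p = 0.0958) without replicate 1, so the size of the SDHC value rested on that library. The SDHC call was also lost without replicate 1 or replicate 2 of siNC (adjusted p = 0.0790 and 0.0536).

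In complex III, 6 of 9 nuclear genes fell with siPDIA5 at 96 h (median -0.29) and 3 of 9 at 48 h. UQCRH, the acidic hinge protein of the cytochrome c1 region, was 149, 130 and 139 RPKM in siNC and 109, 115 and 129 in siPDIA5 at 48 h. At 96 h it was 198, 155 and 192 in siNC, 159, 162 and 165 in siPDIA1 and 120, 107 and 100 in siPDIA5, and the siPDIA5 libraries were below all others of that time. The log2 fold change with siPDIA5 was -0.24 ± 0.09 at 48 h (adjusted p = 0.0326) and -0.72 ± 0.09 at 96 h (adjusted p = 4.19e-06), and siPDIA1 exceeded siPDIA5 by 0.56 ± 0.09 at 96 h (adjusted p = 6.60e-05). Its copy UQCRHL fell with siPDIA5 at 96 h from 21.8, 17.6 and 21.6 to 11.1, 11.6 and 9.76 (-0.85 ± 0.29, adjusted p = 0.0236), a call lost without 3 of 18 libraries, and reads of the UQCRH pair may be shared.

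The core proteins UQCRC1 and UQCRC2, which form the matrix part of complex III, differed. UQCRC1 was 134, 105 and 117 RPKM in siNC and 101, 96.2 and 92.5 in siPDIA5 at 96 h (-0.29 ± 0.07, adjusted p = 0.00382). UQCRC2 rose with siPDIA1 at 96 h, from 58.8, 53.7 and 54.9 to 65.8, 65.7 and 66.0 (0.24 ± 0.04, adjusted p = 0.000208), with no overlap. With siPDIA5 it was 51.2, 51.6 and 51.3, a fall of 0.12 ± 0.04 (adjusted p = 0.0250) that was lost without 3 of 18 libraries. The difference between the siRNAs was 0.35 ± 0.04 (adjusted p = 3.34e-06).

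UQCRFS1, the Rieske iron-sulfur protein, was 45.1, 36.0 and 40.2 RPKM in siNC and 33.1, 31.7 and 29.3 in siPDIA5 at 96 h (-0.35 ± 0.07, adjusted p = 0.000306). At 48 h UQCRFS1 fell by 0.22 ± 0.07 with siPDIA1 and by 0.21 ± 0.07 with siPDIA5 (adjusted p = 0.0151 and 0.0152), calls lost without 2 and 3 of 18 libraries (highest adjusted p = 0.0554 and 0.0612). UQCR11, a small subunit, fell in all 4 comparisons by 0.35 to 0.40 (adjusted p between 0.0179 and 0.0473). These calls were lost without 12 of 18 libraries for siPDIA1 at 48 h, without 2 for siPDIA5 at 48 h and without replicate 1 for siPDIA1 at 96 h (-0.24, adjusted p = 0.104). UQCR10 was 13.4, 28.95 and 30.3 in siPDIA1 and 39.0, 32.3 and 38.3 in siNC at 96 h, and its fall of 0.65 ± 0.21 (adjusted p = 0.0190) became -0.29 (adjusted p = 0.0565) without replicate 1. The UQCR10 call was also lost without replicate 1 or replicate 3 of siNC (adjusted p = 0.0580 and 0.0568).

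Of the 11 nuclear subunits of complex IV tested, NDUFA4 among them, 0 passed in limma with siPDIA1 at 48 h. There 3 were lower at an unadjusted p under 0.05, and 1, COX5B, fell at 96 h. With siPDIA5, 1 fell at 48 h and 5 at 96 h (median -0.21). COX5B was 149, 108 and 137 RPKM in siNC, 103, 111 and 103 in siPDIA1 and 101, 89.4 and 92.5 in siPDIA5 at 96 h, so that siPDIA5 was below all siNC libraries and siPDIA1 overlapped them. The log2 fold change was -0.46 ± 0.10 with siPDIA5 (adjusted p = 0.00131) and -0.30 ± 0.10 with siPDIA1 (adjusted p = 0.0268), the latter at -0.28 (adjusted p = 0.0671) without replicate 1 of siPDIA1. COX6B1, which faces the intermembrane space, fell by 0.38 ± 0.09 with siPDIA5 at 96 h (adjusted p = 0.00215).

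COX4I1, the subunit known to bind ATP and regulate the enzyme, was 126, 94.0 and 110 RPKM in siNC and 96.4, 88.4 and 89.5 in siPDIA5 at 96 h (-0.25 ± 0.08, adjusted p = 0.0195), a call lost without 4 of 18 libraries. COX5A was 201, 159 and 190 against 153, 156 and 155 (-0.24 ± 0.07, adjusted p = 0.00750). COX6C was 50.6, 39.6 and 48.5 in siNC and 26.5, 59.1 and 51.1 in siPDIA1 at 96 h; its log2 value of -0.09 ± 0.19 (adjusted p = 0.732) turned to 0.25 (adjusted p = 0.0375) without replicate 1, so that this library set the sign for COX6C.

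In the ATP synthase 11 of 17 nuclear genes fell with siPDIA5 at 96 h (median -0.34) and 4 of 17 at 48 h (median -0.11). With siPDIA1 6 fell and 1 rose at 96 h and 3 fell at 48 h. At 48 h the share of falls was below that over all genes with siPDIA5 (29.2%) and near it with siPDIA1 (17.4%). In the F1 part, which holds the catalytic head and the central stalk, 5 of 5 genes fell at 96 h with a median of -0.52, and 2 of 5 had fallen at 48 h. In the c ring, whose 3 genes encode the same mature protein and differ in their import sequences, 3 of 3 fell with a median of -0.63. Of the peripheral stalk 2 of 4 fell, and of the other membrane subunits 1 of 5. Without replicate 2 of siNC at 96 h, 11 of 17 nuclear genes of this complex fell as well.

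ATP5F1A, the alpha subunit, was 73.3, 70.4 and 72.1 RPKM in siNC and 66.4, 66.4 and 67.1 in siPDIA5 at 48 h, and 82.4, 73.2 and 80.7 against 55.1, 54.1 and 54.4 at 96 h. The gap widened from -0.11 ± 0.04 (adjusted p = 0.0364, lost without 5 of 18 libraries) to -0.52 ± 0.04 (adjusted p = 2.77e-08), which left 69.2% of the siNC level. With siPDIA1 ATP5F1A fell by 0.14 ± 0.04 at 96 h (adjusted p = 0.0111), a call lost without replicate 1 or replicate 3 of siNC (adjusted p = 0.0509 and 0.0515). ATP5F1B, the beta subunit, was 868, 755 and 837 in siNC, 627, 614 and 614 in siPDIA1 and 613, 611 and 601 in siPDIA5 at 96 h. Both siRNA groups lay below siNC, at -0.40 ± 0.05 (adjusted p = 3.64e-06) and -0.43 ± 0.05 (adjusted p = 1.31e-06). At 48 h ATP5F1B fell with siPDIA1, from 748, 724 and 732 to 628, 633 and 613 (-0.23 ± 0.05, adjusted p = 0.00107), and was -0.10 ± 0.05 with siPDIA5 (adjusted p = 0.0869).

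ATP5F1D and ATP5F1E encode the delta and epsilon subunits of the central stalk. ATP5F1D fell with siPDIA5 by 0.73 ± 0.10 at 96 h (adjusted p = 2.36e-05) and with siPDIA1 by 0.43 ± 0.10 (adjusted p = 0.00331). ATP5F1E moved apart between the siRNAs at 96 h, with 42.3, 31.5 and 39.6 RPKM in siNC, 43.8, 44.9 and 45.1 in siPDIA1 and 25.2, 24.3 and 23.3 in siPDIA5. The siPDIA1 libraries were the highest of that time and the siPDIA5 libraries the lowest. The direct difference was 0.85 ± 0.08 (adjusted p = 2.29e-07), made up of a fall of 0.61 ± 0.08 with siPDIA5 (adjusted p = 6.95e-06) and a value of 0.24 ± 0.08 with siPDIA1 (adjusted p = 0.0172) that was lost without replicate 2 of siNC (0.12, adjusted p = 0.0646). At 48 h the direct difference was 0.27 ± 0.08 (adjusted p = 0.0113). ATP5F1E overlaps genes on the other strand over 23.2% of its exon bases, and the strand setting of the counting is not given in the sources used here.

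Of the c ring genes, ATP5MC3 was 67.4, 59.4 and 61.3 RPKM in siNC, 51.1, 49.2 and 48.8 in siPDIA1 and 46.0, 48.4 and 51.3 in siPDIA5 at 48 h. At 96 h it was 73.5, 59.7 and 67.7, then 50.8, 52.0 and 52.1, then 39.0, 39.0 and 38.6. Both siRNA groups lay below siNC at both times, and siPDIA5 was below siPDIA1 at 96 h. The log2 fold change was -0.33 ± 0.06 and -0.36 ± 0.06 with siPDIA1 (adjusted p = 0.000908 and 0.000235) and -0.36 ± 0.06 and -0.76 ± 0.06 with siPDIA5 (adjusted p = 0.000258 and 6.83e-08). ATP5MC1 fell with siPDIA1 at both times, from 44.4, 42.2 and 42.4 to 32.0, 32.6 and 35.3 at 48 h (-0.36 ± 0.09, adjusted p = 0.00415) and from 56.1, 44.1 and 56.5 to 39.7, 34.3 and 32.4 at 96 h (-0.54 ± 0.09, adjusted p = 9.14e-05). With siPDIA5 ATP5MC1 was 42.1, 41.9 and 46.2 at 48 h (0.01 ± 0.09, adjusted p = 0.922) and 34.0, 33.8 and 32.0 at 96 h (-0.63 ± 0.09, adjusted p = 1.57e-05). ATP5MC2 fell with siPDIA5 by 0.28 ± 0.06 at 48 h and 0.41 ± 0.06 at 96 h (adjusted p = 0.000740 and 1.58e-05), and the siPDIA1 level exceeded that of siPDIA5 by 0.22 ± 0.06 and 0.48 ± 0.06 (adjusted p = 0.00599 and 3.73e-06).

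Among the membrane subunits ATP5ME had a log2 fold change of -1.18 ± 0.47 with siPDIA1 at 96 h (adjusted p = 0.0522), set by replicate 1 as described above. The pseudogene row ATP5MC1P5 was 0.177, 2.42 and 1.04 RPKM in siPDIA1 against 2.86, 4.26 and 3.19 in siNC at 96 h, and its call (-1.12 ± 0.38, adjusted p = 0.0228) was lost without replicate 1 (-0.74, adjusted p = 0.120) and without replicate 2 of siNC (adjusted p = 0.0724).

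**Figure D5:**
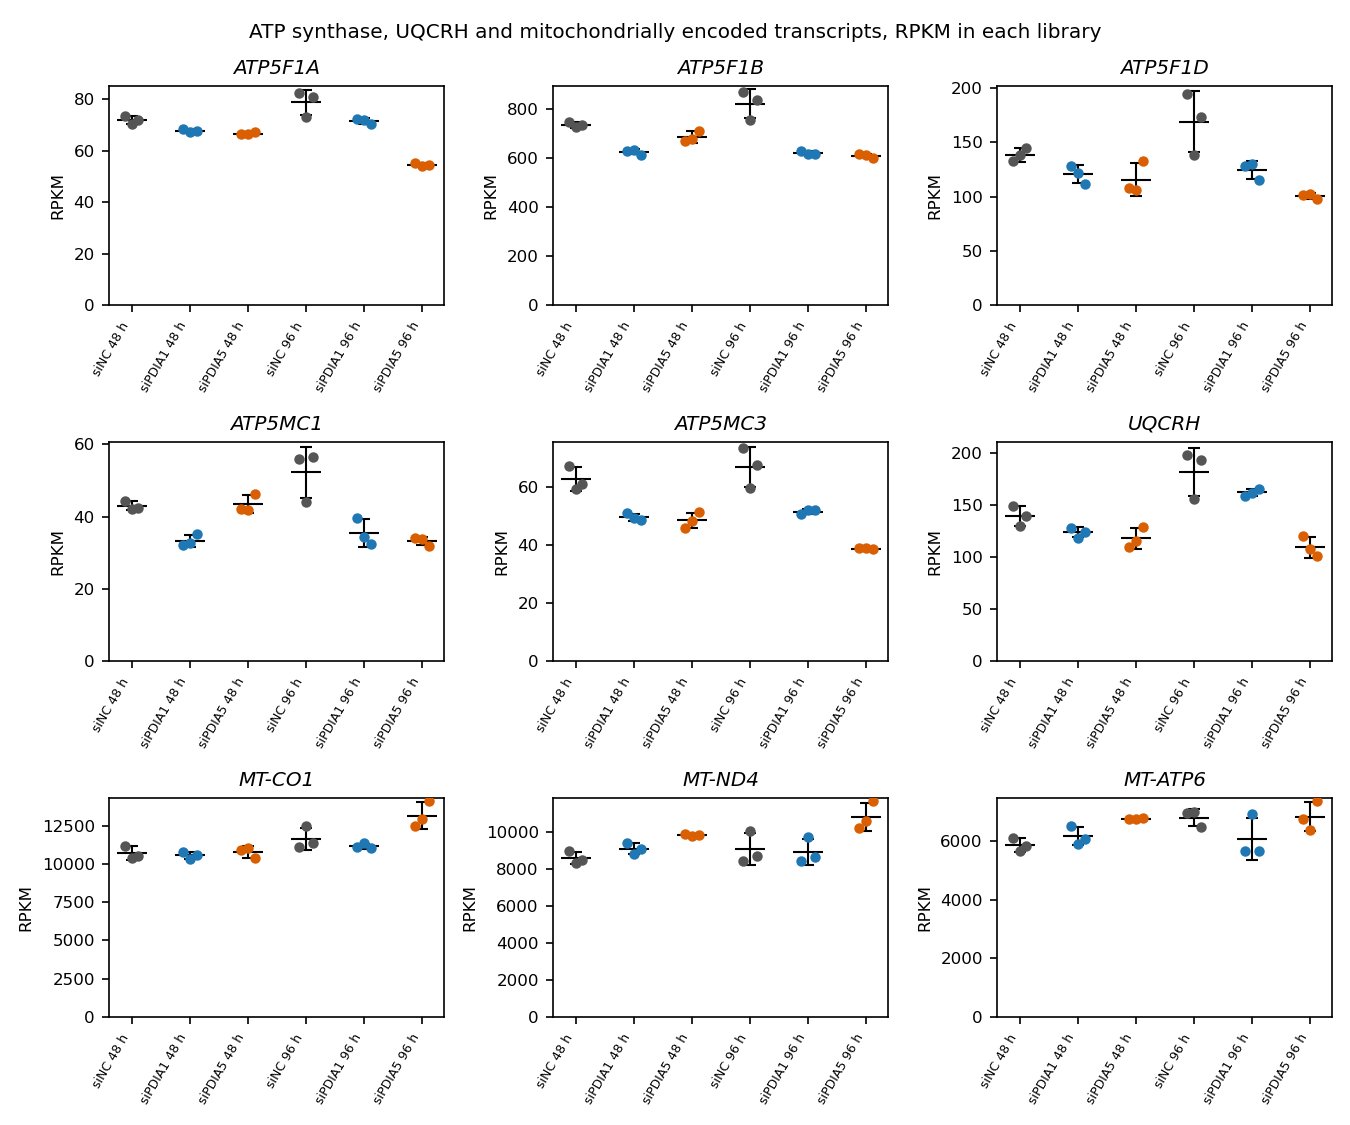
RPKM (y axis, from 0) of 5 ATP synthase transcripts, UQCRH and 3 mitochondrial transcripts in each of the 18 libraries, by group (x axis; points, libraries; horizontal bar and whiskers, mean and SD, n = 3). The siPDIA5 libraries at 96 h are the lowest of their time for ATP5F1A (54.1 to 55.1), ATP5MC3 (38.6 to 39.0) and UQCRH (100 to 120), and lie above siNC for MT-CO1 in 2 of 3 libraries.

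The mitochondrial transcripts changed by smaller steps, and those called with siPDIA5 were higher, except under quantile normalization, where 1 rose and 1 fell at 48 h and 0 rose and 1 fell at 96 h. That scaling sets rows of equal rank to equal values and cannot measure a shift shared by rows that keep their ranks. At 48 h, MT-ND6, the only subunit encoded on the light strand, was 1606, 1534 and 1445 RPKM in siNC, 1710, 1547 and 1649 in siPDIA1 and 1856, 1915 and 1881 in siPDIA5. The siPDIA5 libraries exceeded all others of that time, with a log2 fold change of 0.30 ± 0.07 against siNC (adjusted p = 0.00290) and a siPDIA1 difference of -0.21 ± 0.07 from siPDIA5 (adjusted p = 0.0331). At 96 h MT-ND6 was 0.16 ± 0.07 (adjusted p = 0.0714). MT-ND6 lies opposite the heavy-strand transcript, and the strand setting of the counting is not given in the sources used here. Its values are therefore uncertain.

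The other 5 rises at 48 h were in MT-ND1, MT-ND3, MT-ND4, MT-CYB and MT-ATP6, by 0.15 to 0.25 on the log2 scale (adjusted p between 0.0415 and 0.0474). Each of these 5 calls was lost without 7 to 11 of the 18 libraries, with a highest adjusted p of 0.152 for MT-ND1. MT-ND4, a proton-pumping core subunit, was 8995, 8341 and 8513 RPKM in siNC and 9891, 9814 and 9830 in siPDIA5 at 48 h, and 8466, 10074 and 8696 against 10204, 10591 and 11681 at 96 h. The groups of MT-ND4 did not overlap at either time, and the 96 h value of 0.26 ± 0.08 (adjusted p = 0.00978) missed the threshold without replicate 3 of siPDIA5 (0.20, adjusted p = 0.0571). MT-CO1, the catalytic subunit of complex IV, was 11120, 12457 and 11352 in siNC and 12446, 12909 and 14107 in siPDIA5 at 96 h (0.18 ± 0.06, adjusted p = 0.0274), lost without 3 of 18 libraries.

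MT-CYB, the cytochrome b of complex III, was 7324, 7979 and 7358 RPKM in siNC and 8002, 8128 and 8876 in siPDIA5 at 96 h (0.14 ± 0.06, adjusted p = 0.0508). MT-ND5 was 2033, 2831 and 2332 against 2525, 2671 and 2829 (0.17 ± 0.09, adjusted p = 0.124), MT-CO3 was 14443, 14512 and 14348 against 15038, 15403 and 16098 (0.10 ± 0.06, adjusted p = 0.137), and neither passed the threshold. For MT-ATP6 the 96 h value was 0.01 ± 0.08 (adjusted p = 0.961). Without replicate 2 of siNC at 96 h, 6 of the 13 mitochondrial transcripts rose with siPDIA5 at 96 h, the additional ones being MT-CYB, MT-ND1, MT-ND5 and MT-ND6.

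With siPDIA1 MT-ND1 rose at both times. It was 5570, 5168 and 5090 RPKM in siNC and 6135, 5754 and 6034 in siPDIA1 at 48 h (0.18 ± 0.06, adjusted p = 0.0430, lost without 8 of 18 libraries), and 5637, 6259 and 5492 against 7302, 7367 and 6745 at 96 h (0.30 ± 0.06, adjusted p = 0.00126). The groups did not overlap at either time. MT-CO2 was 9332, 10422 and 8699 in siPDIA1 against 11254, 10768 and 10454 in siNC at 96 h, a fall of 0.19 ± 0.07 (adjusted p = 0.0355) lost without 3 libraries, replicate 1 of siPDIA1 among them (adjusted p = 0.0773). MT-ATP8, at 3323, 1052 and 820 against 953, 1040 and 923, did not pass (0.55 ± 0.34, adjusted p = 0.199), and its siPDIA1 mean was raised by replicate 1.

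When the siRNAs were compared directly at 96 h, 30 of 74 nuclear subunits were higher and 1 lower in siPDIA1 than in siPDIA5, with a median of 0.16 against 0.04 over all genes, of which 27.7% were higher and 20.9% lower. The mitochondrial subunits went the other way, with 1 higher and 6 lower of 13 (median -0.18). Without replicate 1 of siPDIA1 the counts were 26 and 1 for nuclear and 0 and 4 for mitochondrial subunits. MT-CO2 and MT-ND2 had the largest differences among the 6 that passed as lower, at -0.35 ± 0.07 (adjusted p = 0.000775) and -0.35 ± 0.11 (adjusted p = 0.0115), the latter lost without replicate 1 of siPDIA1 (-0.20, adjusted p = 0.0534) or without replicate 3 of siPDIA5. At 48 h 11 nuclear subunits were higher and 4 lower in siPDIA1 (median 0.03 against 0.08 over all genes), and 0 and 1 mitochondrial ones, beside 26.3% and 14.9% of all genes. Centring each library on its median turned the split of all genes at 48 h from 3070 higher and 1743 lower to 2046 and 2647, that of the nuclear subunits to 6 higher and 7 lower, and that of all members called from 11 and 5 to 6 and 12. The 4 nuclear genes lower in siPDIA1 were NDUFB4, ATP5MC1, ATP5F1B and NDUFA3, the last at -0.29 ± 0.08 (adjusted p = 0.0120), a call lost without 1 library.

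The effect of siPDIA5 differed between the times for 11 members, 10 of them more negative at 96 h and 1, NDUFB3, less. Over all genes 9.09% were called lower and 9.22% higher in this test. Of the 10, 6 encode subunits of the F1 part or the c ring, with differences of the log2 fold changes of -0.33 ± 0.07 for ATP5F1B (adjusted p = 0.00281), -0.41 ± 0.06 for ATP5F1A (adjusted p = 0.000145) and -0.64 ± 0.12 for ATP5MC1 (adjusted p = 0.00183). UQCRH differed by -0.48 ± 0.12 (adjusted p = 0.0136). Without replicate 2 of siNC at 96 h, 21 nuclear subunits were more negative at 96 h and 0 less. Leaving out siNC replicate 2 at 48 h or siPDIA5 replicate 2 at 96 h left 7 members called.

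For siPDIA1 1 member differed between the times, NDUFA5, a matrix-side accessory subunit (0.32 ± 0.08, adjusted p = 0.0218), beside 2.5% of genes higher and 2.97% lower. It was 3.36, 3.35 and 3.10 RPKM in siNC and 2.78, 2.64 and 2.74 in siPDIA1 at 48 h, and 2.95, 2.78 and 2.93 against 3.32, 3.09 and 3.29 at 96 h. The call of NDUFA5 was lost without 4 of 18 libraries. Between 0 and 4 members were called in this test when a library was left out.

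The control cells themselves changed with time. In siNC, 14 of 74 nuclear subunits and 4 of 13 mitochondrial ones were higher at 96 h than at 48 h and 0 lower, with medians of 0.17 and 0.18 against -0.02 over all genes, of which 11% were higher and 13.3% lower. At an unadjusted p under 0.05, 3 nuclear and 0 mitochondrial subunits were lower. COX5B rose by 0.54 ± 0.10 (adjusted p = 0.00163), NDUFA13 by 0.48 ± 0.11 (adjusted p = 0.00630) and NDUFB4 by 0.45 ± 0.08 (adjusted p = 0.000682). Without replicate 2 of siNC at 96 h, 35 nuclear subunits were higher and 0 lower. The 18 members called over both genomes became 7, 8, 8 and 11 without siNC replicate 1 at 96 h, replicate 3 at 96 h, replicate 2 at 48 h and replicate 3 at 48 h, and 40 without replicate 2 at 96 h.

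The nuclear RPKM was also summed by complex. For complex V the sum was 1549 to 1631 in siNC, 1419 to 1439 in siPDIA1 and 1419 to 1554 in siPDIA5 at 48 h. At 96 h it was 1613 to 1950, 1449 to 1525 and 1323 to 1372, so siPDIA5 lay below siPDIA1 and siPDIA1 below siNC. For complex I the 48 h sums were 2102 to 2289 in siNC, 2002 to 2042 in siPDIA1 and 1834 to 2071 in siPDIA5, both below siNC, although 3 of its genes rose and 3 fell with siPDIA1. The 96 h sums were 2297 to 2990 in siNC, 2331 to 2476 in siPDIA1 and 1978 to 2095 in siPDIA5, and siPDIA1 overlapped siNC. For complex III at 96 h siPDIA5 (431 to 467) lay below siNC (510 to 650), and for complex IV siPDIA5 (1004 to 1080) overlapped siNC (1050 to 1368). The complex II sums of siPDIA5 (68.1 to 75.1) overlapped siNC (67.2 to 80.1) at 96 h as well. These sums are weighted to the genes of high level and carry no test.

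Genes that build or supply the chain were followed in lists of their own. Their counts stand beside 30.3% of all genes tested lower and 20.8% higher with siPDIA5 at 96 h, and 29.2% and 16.6% at 48 h. Among 6 tested subunits and electron carriers with symbols outside the patterns, CYC1, the cytochrome c1 of complex III, fell in all 4 comparisons, by 0.26 to 0.48 (adjusted p between 0.000114 and 0.0133). NDUFAB1, the acyl carrier protein bound to complex I, fell by 0.65 ± 0.08 with siPDIA1 at 48 h (adjusted p = 1.36e-05), and CYCS, cytochrome c, was 0.29 ± 0.05 higher with siPDIA1 at 96 h (adjusted p = 0.000302). Of 18 complex I assembly factors, 10 fell and 1 rose with siPDIA5 at 96 h, led by NDUFAF8, which fell from a mean of 85.2 RPKM to 33.3 (-1.32 ± 0.15, adjusted p = 2.02e-06). NDUFAF3 fell with siPDIA1 at 96 h by 0.82 ± 0.10 (adjusted p = 1.02e-05) and was -0.15 ± 0.10 with siPDIA5 (adjusted p = 0.242).

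Among 6 complex III assembly factors 2 fell and 1 rose with siPDIA5 at 96 h, and BCS1L, which inserts the Rieske protein UQCRFS1, fell by 0.59 ± 0.08 at 48 h and 1.05 ± 0.08 at 96 h (adjusted p = 2.81e-05 and 3.21e-08). Of 19 complex IV assembly factors 7 fell and 2 rose, with COA3 at -0.80 ± 0.09 (adjusted p = 1.70e-06); SCO1, a copper chaperone, fell by 0.51 ± 0.05 with siPDIA1 at 48 h (adjusted p = 1.91e-06). The 4 complex II factors gave 0 falls and 1 rise with siPDIA5 at 96 h, and SDHAF2 had fallen at 48 h (-0.80 ± 0.22, adjusted p = 0.00667). Of 5 ATP synthase factors 1 fell and 1 rose, and TMEM70, which helps assemble the c ring, fell by 0.63 ± 0.09 (adjusted p = 2.59e-05). Of 10 coenzyme Q genes 3 fell and 1 rose, with PDSS1, which makes the isoprenoid tail, at -0.94 ± 0.08 (adjusted p = 7.77e-08) and PDSS2 higher with siPDIA1 at 48 h (0.66 ± 0.08, adjusted p = 8.66e-06). For the complex III factors and the coenzyme Q genes the share of falls was near the 30.3% over all genes with siPDIA5 at 96 h.

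Of 27 genes of mitochondrial transcription and RNA handling, 17 fell and 0 rose with siPDIA5 at 96 h (median -0.31), and 14 fell and 1 rose at 48 h. Over all genes tested, 30.3% fell at 96 h and 29.2% at 48 h with siPDIA5. TRMT10C, a subunit of the mitochondrial RNase P that cuts the polycistronic transcripts, fell by 0.62 ± 0.05 at 48 h and by 0.70 ± 0.05 at 96 h (adjusted p = 9.51e-08 and 1.44e-08). TWNK, the mitochondrial DNA helicase, fell by 0.77 ± 0.06 at 96 h (adjusted p = 5.78e-08). ELAC2, which cuts the other ends of the mitochondrial tRNAs, fell by 0.90 ± 0.05 with siPDIA1 at 48 h (adjusted p = 1.43e-09). Of 8 nuclear regulators of respiratory genes, 4 fell with siPDIA5 at 48 h, among them NRF1 (-0.54 ± 0.11, adjusted p = 0.000902) and the coactivator PPRC1 (-0.34 ± 0.06, adjusted p = 0.000202), and 1 fell and 1, YY1 (0.21 ± 0.04, adjusted p = 0.000939), rose at 96 h.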

How the data were processed

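The authors deposited 1 table of RPKM values per gene for all 18 libraries. Trizol RNA went into a stranded, polyA-selected kit (Nugen Universal Plus), per the labels' protocols. Per the submitters' processing notes, the tools named were R 3.4.1, DESeq2, featureCounts, STAR 2.7.0f and cutadapt 1.8, and hg38 and GRCh38 were named as builds. No source used here gives the annotation release, the strand setting or the treatment of multi-mapping reads.

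Groups were taken from the sample labels. Values were analysed as log2(RPKM + 1), so fold changes of low genes are understated. Rows with a mean of at least 1 RPKM (11685 of 59385) were fitted with limma 3.58.1 in R 4.3.3, with 6 group means and a trended prior, and p-values were adjusted by Benjamini-Hochberg over all of them. The fit was tested on simulated data with independent noise for each gene. No shifted or outlying library was simulated, so that test cannot check calls affected by such libraries. Depth was estimated from RPKM steps and GENCODE 29 exon lengths, within 0.1 read; 57118 identifiers were in that annotation. Replicate libraries correlated at 0.971 to 0.993.

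The members and the related lists were chosen with earlier results of these data known. Values were given for 24 members fixed by name and for the top 5 called members in each direction, by size of change, in each comparison with siNC. The top 3 in the other 5 comparisons were given as well. These values are per library, a range or a fold change alone. Other members are named for a count, an overlap with another gene or a change on leaving out a library. Related lists name up to 3 genes each, by smallest adjusted p. The alternatives were another pseudocount, filter, scaling or prior, only the groups compared, a replicate block, each library left out and, chosen after seeing the data, scaling to nuclear reads. The values of 1 member are not reported here; it is included in the counts.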

Additional observations from a re-analysis of the deposited data

Results flagged for a closer look

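The tests of a difference between the siRNA effects at 96 h and at 48 h, by limma over all genes, set 12 results apart. For siPDIA5 the log2 fold change was more negative at 96 h for ATP5F1A (a difference of -0.41), ATP5F1B (-0.33), ATP5F1D (-0.46), ATP5F1E (-0.47), ATP5MC1 (-0.64) and ATP5MC3 (-0.40), which encode subunits of the F1 part and the c ring of the ATP synthase. It was also more negative for NDUFS5 (-0.39), NDUFV1 (-0.33), UQCRC2 (-0.19) and UQCRH (-0.48). For NDUFB3, an accessory subunit of complex I, the effect of siPDIA5 was 0.32 less negative at 96 h, a call lost without 6 of the 18 libraries. For siPDIA1 the effect on NDUFA5 was 0.32 higher at 96 h. The siNC level of several of these genes also differed between the times, and the part of replicate 2 of siNC at 96 h was measured by leaving it out, which left 21 nuclear subunits with a more negative siPDIA5 effect.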

How the results depend on the processing

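Fitting only the groups compared moved the members called from 12 to 22 (siPDIA1, 48 h), from 28 to 11 (siPDIA1, 96 h) and from 18 to 4 (siNC, 96 h against 48 h). Without a filter 15 (siPDIA1, 96 h), 13 (siPDIA5, 48 h), 24 (siPDIA1 against siPDIA5, 96 h), 6 (time difference of siPDIA5) and 8 (siNC over time) were called, and quantile normalization gave 7 for the time difference of siPDIA1. The nuclear median with siPDIA1 at 48 h was -0.0700 without a filter, -0.0545 under quantile normalization and -0.0718 scaled to nuclear reads, and at 96 h -0.0344 under quantile normalization. With siPDIA5 at 48 h, median centring moved the nuclear median to 0.00 (-0.0017) and the mitochondrial one to 0.27. With siPDIA5 at 96 h the nuclear median was -0.19 under median centring, -0.16 under quantile normalization and -0.20 scaled to nuclear reads. Under quantile normalization the mitochondrial medians with siPDIA5 were 0 at both times, and MT-CO3 turned to -0.18 (siPDIA1, 48 h), -0.12 (siPDIA1, 96 h) and -0.18 (siPDIA5, 48 h and 96 h). This scaling gives rows of equal rank the same value in every library. It therefore cannot measure a shift shared by rows that keep their ranks. COX6C with siPDIA1 at 96 h turned to 0.25 without replicate 1. The cause was not tested.

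With each library left out in turn, the members called ranged from 8 to 19 and 17 to 36 (siPDIA1, 48 h and 96 h), 13 to 30 and 26 to 47 (siPDIA5), 13 to 21 and 29 to 42 (siPDIA1 against siPDIA5), 0 to 4 and 7 to 21 (time differences of siPDIA1 and siPDIA5) and 7 to 40 (siNC over time). Nuclear medians ranged from -0.0972 to -0.0636 and -0.20 to -0.0492 (siPDIA1) and from -0.14 to -0.08 and -0.31 to -0.15 (siPDIA5). Mitochondrial medians ranged from 0.03 to 0.13 and -0.07 to 0.06 (siPDIA1) and from 0.14 to 0.19 and 0.11 to 0.20 (siPDIA5).

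With the replicate number as a block, 9 and 26 (siPDIA1), 18 and 40 (siPDIA5), 15 and 37 (siPDIA1 against siPDIA5), 1 and 10 (time differences) and 18 (siNC) members were called. Deviations of same-numbered libraries correlated at -0.257 to 0.139, with 4 of 45 pairs over 0.1 and 9 of 18 libraries closest to their own number. Between different numbers, replicate 2 of siNC at 96 h correlated at 0.293 with replicate 1 of siPDIA5 at 48 h and at -0.298 with replicate 3. These values cannot decide whether libraries of 1 number shared a culture or a batch. RPKM without read counts limits low genes such as NDUFA13.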
